A study of Homo sapiens with 8 samples.

Results

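The GADD45 family of 3 genes, GADD45A, GADD45B and GADD45G, was followed across the treatments of a triple negative breast cancer (TNBC) cell line by RNA-seq. The members were found by symbol, and all 3 were among the 23228 genes listed in the count tables. BT-549, an established TNBC line grown in RPMI with 10% FBS, received DMSO as vehicle, EC359 at 100 nM, vorinostat at 10 µM, or EC359 and vorinostat together at the same doses, for 24 h. EC359 is a small molecule inhibitor of the leukemia inhibitory factor receptor (LIFR), and vorinostat is an inhibitor of histone deacetylases (HDACi). Each of the 4 groups held 2 libraries, 8 in all, from this single cell line. The labels do not say whether the 2 libraries of a group came from separate cultures, so the p-values measure only the spread between these libraries, which may be technical.

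GADD45 proteins are small, acidic proteins that cells make in response to DNA damage, growth factor withdrawal and other stress. They have no known enzyme activity and act by binding other proteins. They bind and activate the kinase MAP3K4 upstream of p38 and JNK, interfere with the CDK1 and cyclin B1 kinase at entry into mitosis, and bind PCNA and the CDK inhibitor p21. GADD45A is known for its induction by DNA damage. GADD45B is known for its induction by NF-kB and TGF-beta signalling, and GADD45G for its silencing in many tumours.

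The libraries held 19069450 to 24759041 reads on genes, and counts were expressed as counts-per-million values (CPM) after TMM scaling with factors of 0.955 to 1.03. The 2 libraries of a group differed by more than counting noise in every group, with a chi-square per degree of freedom of 2.26 for vorinostat, 7.32 for vehicle, 9.97 for the combination and 51.5 for EC359. The mesenchymal marker VIM stood at 2056 CPM or more in every library. ESR1 and PGR, which encode the hormone receptors, reached at most 1.02 and 0.0511 CPM, and the epithelial genes CDH1 and EPCAM at most 2.21 and 4.27 CPM. ERBB2, which encodes HER2, was present at 99.1 ± 4.18 CPM in vehicle and 12.3 ± 0.416 CPM in the combination (SD, n = 2).

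All 3 members lay on the plus strand of GRCh37, the build that hg19 shares. GADD45A occupied chr1:68150884-68154017, GADD45B chr19:2476120-2478257 and GADD45G chr9:92219927-92221470. No other annotated gene overlapped any of them, and the MANE transcript of each had 4 exons. Their annotated exons covered 1925 bp, 2138 bp and 1323 bp, in that order. Reads of 50 bp were counted per gene, so no transcript variant was resolved.

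The sequences before the transcription start of GADD45B and GADD45G are shown to set an expressed member beside one without reads. RefSeq windows on GRCh38.p14 held 2 of the 3 members, GADD45B at chr19:2475877-2476126 and GADD45G at chr9:89604762-89605011, both on the plus strand. The 250 bases that end at the start site are written 5′ to 3′, and capitals mark matches to the motifs listed after them.
GADD45B: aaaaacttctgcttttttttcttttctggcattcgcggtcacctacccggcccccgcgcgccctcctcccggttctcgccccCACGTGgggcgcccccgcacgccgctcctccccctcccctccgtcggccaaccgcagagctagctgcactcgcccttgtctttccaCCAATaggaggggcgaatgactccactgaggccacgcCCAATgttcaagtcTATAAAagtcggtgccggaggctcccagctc
GADD45G: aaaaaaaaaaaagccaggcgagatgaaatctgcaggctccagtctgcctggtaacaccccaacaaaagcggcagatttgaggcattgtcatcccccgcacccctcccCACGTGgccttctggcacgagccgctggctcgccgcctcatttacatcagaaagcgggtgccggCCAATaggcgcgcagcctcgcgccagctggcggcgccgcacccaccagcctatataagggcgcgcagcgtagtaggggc
A fixed set of 8 motifs was searched on both strands, and no matches overlapped. The GADD45B window held CCAAT at 82 to 78 and at 45 to 41 bases before the start, TATAAA at 31 to 26 bases and the E-box CACGTG at 168 to 163 bases. The GADD45G window held CCAAT at 79 to 75 bases and CACGTG at 143 to 138 bases. It held no exact TATAAA, though the similar letters tatataag stand near its end. Only exact letters were searched, so variants of a motif were not counted in either window. Neither window held the GC box GGGCGG or the AP-1 site TGACTCA. The other motifs without a match were the CRE TGACGTCA, the C/EBP-ATF site TGATGCAA and the octamer ATTTGCAT. Of 35116 promoter windows of the same length, 32.0% held CCAAT, 10.7% the TATA box TATAAA, 6.34% the E-box, 42.6% the GC box, 4.20% the AP-1 site, 1.65% the CRE, 0.77% the C/EBP-ATF site and 1.63% the octamer. The GC content was 63.2% for GADD45B and 61.6% for GADD45G, beside a median of 58.0% over all windows. A match to these letters is a description of the window and was not tested as a site.

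GADD45A was higher in all treated groups than in vehicle, and it stood highest in the combination. Its level was 32.1 and 34.8 CPM in the vehicle libraries and 78.4 and 72.1 CPM in the EC359 libraries. It was 62.5 and 60.2 CPM in the vorinostat libraries and 247 and 256 CPM in the combination libraries. No library of a treated group overlapped with vehicle, and both combination libraries lay far above all the others. Against vehicle, EC359 raised GADD45A 2.25-fold, a log2 fold change of 1.17 with an SE of 0.10 (adjusted p = 6.9e-05, edgeR's quasi-likelihood test). The difference between vorinostat and vehicle was 1.83-fold (log2 0.88, SE 0.10, adjusted p = 4.6e-05, edgeR). This passed the adjusted p threshold of 0.01 and stayed under the fold required for a call, an absolute log2 fold change over 1. The combination raised GADD45A 7.52-fold against vehicle (log2 2.91, SE 0.10, adjusted p = 6.2e-08), 4.10-fold against vorinostat (log2 2.04, SE 0.10, adjusted p = 2.1e-06) and 3.34-fold against EC359 (log2 1.74, SE 0.09, adjusted p = 6.8e-07, edgeR). Since the libraries are bulk RNA scaled to their own totals, more cells that express a gene and more RNA per cell cannot be told apart.

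GADD45B responded to EC359 in the opposite direction. Its level was 36.1 and 34.1 CPM in the vehicle libraries and 12.6 and 16.1 CPM in the EC359 libraries. It was 61.3 and 60.1 CPM in the vorinostat libraries and 110 and 112 CPM in the combination libraries. The 4 groups did not overlap, with EC359 lowest and the combination highest. Against vehicle, EC359 lowered GADD45B 2.45-fold, a log2 fold change of -1.29 with an SE of 0.13 (adjusted p = 1.8e-04, edgeR's quasi-likelihood test). In a fit to the 4 vehicle and EC359 libraries alone, the fall was of the same size, -1.27 on the log2 scale, and lost its call (adjusted p = 0.015, edgeR). Vorinostat stood 1.73-fold above vehicle (log2 0.79, SE 0.12, adjusted p = 3.4e-04, edgeR), under the fold needed for a call. The combination raised GADD45B 3.16-fold against vehicle (log2 1.66, SE 0.12, adjusted p = 2.8e-06) and 7.75-fold against EC359 (log2 2.95, SE 0.13, adjusted p = 2.4e-07, edgeR). Against vorinostat the combination was 1.83-fold higher (log2 0.87, SE 0.12, adjusted p = 0.0010, edgeR), again under the fold for a call, and without either vorinostat library or either combination library the adjusted p lay between 0.016 and 0.025.

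GADD45G had 0 reads in all 8 libraries. A count of 0 allows up to 3 counts, or 0.124 to 0.154 CPM depending on the library, a limit that covers counting error only. GADD45G therefore did not pass the filter on low counts, and no comparison of its level between groups was possible at this depth. Per kilobase of exon, GADD45A and GADD45B stood close to each other in vehicle, at 17.4 ± 1.03 and 16.4 ± 0.65 CPM per kb (SD, n = 2). In the combination they stood at 131 ± 3.24 and 51.9 ± 0.583 CPM per kb (SD, n = 2). In EC359 alone the values were 39.1 ± 2.31 CPM per kb for GADD45A and 6.71 ± 1.15 CPM per kb for GADD45B (SD, n = 2), and in vorinostat alone 31.9 ± 0.862 and 28.4 ± 0.379 CPM per kb (SD, n = 2).

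**Figure D1:**
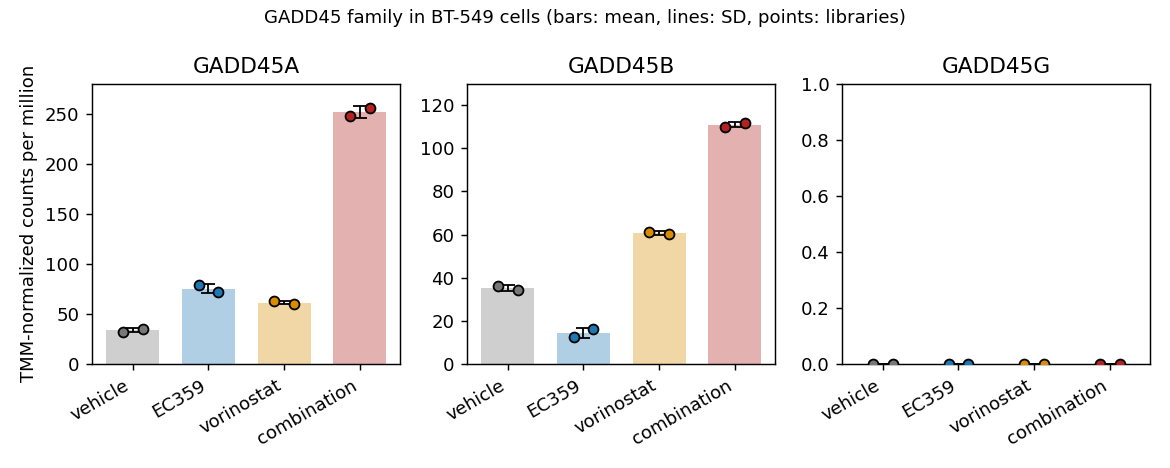
Levels of the 3 GADD45 genes as counts-per-million values (CPM, y axis, from 0, with its own scale in each panel) in the 4 groups (x axis), where points are libraries and bars are group means. GADD45A rose from 33.4 CPM in vehicle to 252 CPM in the combination, GADD45B was lowest in EC359 at 14.3 CPM, and GADD45G had no reads in any library.

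The levels of GADD45A were ordered as vehicle, vorinostat, EC359 and combination. Vorinostat and EC359 were neighbours in this order and did not differ past the threshold, with a log2 difference of -0.30 for vorinostat minus EC359 (95% interval -0.51 to -0.08, adjusted p = 0.019, edgeR). The levels of GADD45B were ordered as EC359, vehicle, vorinostat and combination. All 3 neighbouring pairs of GADD45B differed at an adjusted p under 0.01, by 1.29, 0.79 and 0.87 on the log2 scale from the lowest to the highest group. Of the 2 members tested, 1 was called higher and 1 lower under EC359, beside 1.94% of all 13694 genes tested called higher and 1.72% lower. Neither was called under vorinostat, where 16.8% of all genes were called higher and 13.3% lower. The combination called both of them higher against vehicle (all genes: 19.5% higher, 15.3% lower) and against EC359 (19.8% higher, 13.9% lower). Against vorinostat it called GADD45A higher and not GADD45B (all genes: 3.37% higher, 0.876% lower).

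The next comparison asked whether the 2 expressed paralogs differed in their response to each drug. Under EC359 alone the log2 fold change of GADD45A exceeded that of GADD45B by 2.46 (95% interval 2.11 to 2.82). Under vorinostat alone the responses differed by 0.08, with an interval of -0.26 to 0.43 that holds 0. When EC359 was added to vorinostat, both differences were positive, and that of GADD45A was the larger by 1.17 (95% interval 0.82 to 1.51). When vorinostat was added to EC359, GADD45A responded less than GADD45B, by -1.21 (95% interval -1.57 to -0.85). These intervals come from the SEs of the fitted changes and take the errors of the genes as independent.

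The paralogs were also compared by the ratio of GADD45A to GADD45B within each library, computed from CPM plus 0.5. On the log2 scale this ratio was -0.17 and 0.03 in the vehicle libraries, 2.59 and 2.13 in EC359, 0.03 and 0.00 in vorinostat and 1.16 and 1.19 in the combination. All 4 libraries that received EC359 lay above all 4 that did not. Averaged over both backgrounds, EC359 shifted the ratio by 1.80, by 2.43 without vorinostat and 1.16 with it (exact permutation test within vorinostat status, two-sided p = 0.0556, adjusted over 2 tests p = 0.111). With 36 possible arrangements, 0.0556 is the smallest p that this test can give. The shift for vorinostat was -0.55, made of 0.08 without EC359 and -1.18 with it (exact permutation test, two-sided p = 0.222, adjusted p = 0.222). Pairs with GADD45G could not be tested.

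**Figure D2:**
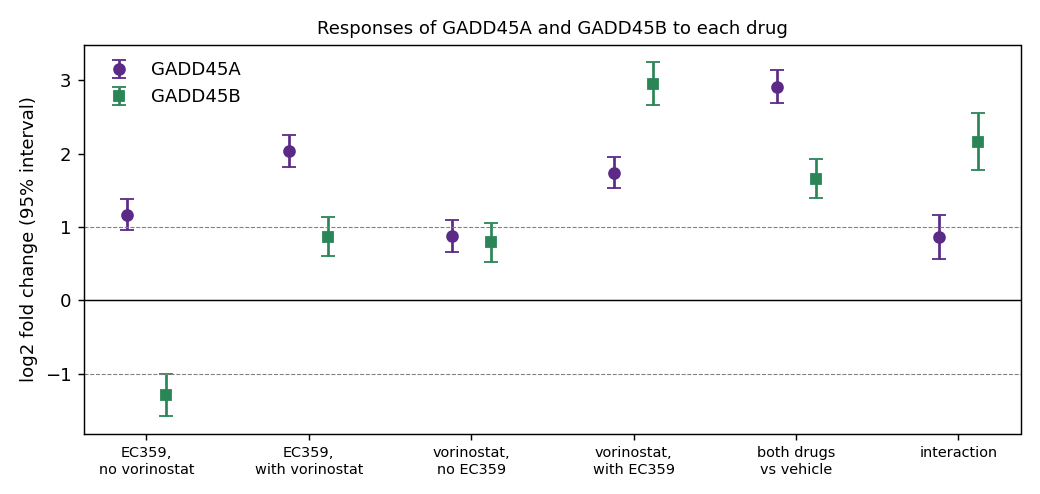
Log2 fold changes of GADD45A and GADD45B (y axis) in each comparison (x axis), where points are estimates of the edgeR fit and bars are 95% intervals. Under EC359 alone the estimates lay on opposite sides of 0, at 1.17 and -1.29, while under vorinostat alone they lay at 0.88 and 0.79.

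Both expressed members were higher in the combination than the single drug responses would give. If the fold changes of the drugs multiplied, GADD45A would reach 138 CPM, and if their differences from vehicle added up, 103 CPM, whereas 252 CPM was measured. For GADD45B the product would be 24.8 CPM and the sum 40.0 CPM, both near or under the vehicle level relative to a measured 111 CPM. The test of the interaction on the log2 scale gave 2.16 for GADD45B (95% interval 1.78 to 2.55, adjusted p = 2.4e-04) and 0.87 for GADD45A (95% interval 0.56 to 1.17, adjusted p = 0.0065, edgeR's quasi-likelihood test). Among all genes tested, 1.62% passed this test above 0 and 0.482% below 0, and GADD45B ranked at place 274 of 13694 by size from the highest. The result for GADD45B kept its call in each of the alternatives tried, with values of 1.99 to 2.34. That for GADD45A lost it in 6 of the 8 fits without 1 library, those that left out a vehicle, vorinostat or combination library, where the estimate was 0.78 to 0.92 and the adjusted p 0.035 to 0.086 (edgeR). It also lost the call with RLE scaling, at 0.82 (adjusted p = 0.010, just above the threshold before rounding), and with a replicate block, at 0.87 (adjusted p = 0.016, edgeR).

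EC359 acted on GADD45A in the same direction in both backgrounds. It was among 124 genes called higher under EC359 against vehicle and again when EC359 was added to vorinostat. By size of the log2 fold change it stood at place 518 of 13694 from the highest in the first comparison and at place 168 in the second. GADD45B changed side: it was the gene at place 528 from the lowest under EC359 alone, and at place 989 from the highest when EC359 was added to vorinostat. By the full call rule 7 genes were lower without vorinostat and higher with it, 0 genes did the reverse and 30 were lower in both. GADD45B was not among the 7, since its rise on vorinostat was under the fold threshold. With the adjusted p of 0.01 alone, a rule added after the values were seen, 25 genes were lower without and higher with vorinostat, GADD45B among them, which is 0.183% of the genes tested, and 549 genes were lower without it. By that rule 301 genes, or 2.20%, were higher in both backgrounds, GADD45A among them. The comparisons of EC359 with and without vorinostat use different libraries.

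**Figure D3:**
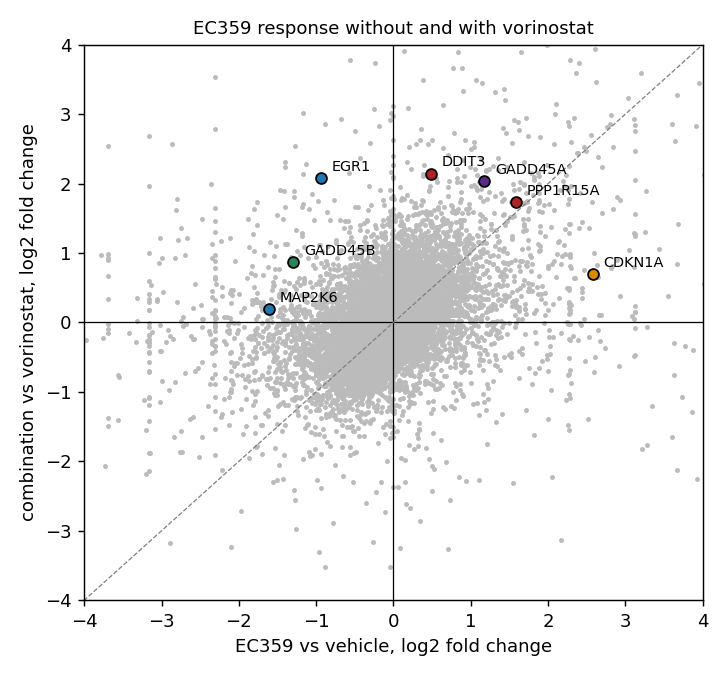
Log2 fold change of each gene for EC359 against vehicle (x axis) and for the combination against vorinostat (y axis), with 13585 genes drawn as grey points, 109 outside the axes, and GADD45A and GADD45B marked. GADD45A lay at 1.17 and 2.04, and GADD45B at -1.29 and 0.87, among the genes lower without and higher with vorinostat.

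The genes with profiles nearest to each member over the 8 libraries were found by the root mean square difference of centred log2 CPM among 9976 genes with an average log2 CPM of at least 3. Of the 5 nearest to GADD45A, 4 are given here, NFKBIZ at 0.14, IRS2 at 0.18, SPRY1 at 0.19 and SQSTM1 at 0.24. NFKBIZ, a nuclear IkB protein, had log2 fold changes of 0.92 with EC359, 0.65 with vorinostat and 2.76 with both, against 1.17, 0.88 and 2.91 for GADD45A. SPRY1 is a feedback inhibitor of receptor tyrosine kinase signalling, and SQSTM1 encodes the autophagy receptor p62. For GADD45B the nearest were SOCS3 at 0.20, MAP2K6 at 0.29, VASH2 at 0.29, CITED2 at 0.31 and STARD4 at 0.31. SOCS3, a feedback inhibitor of JAK and STAT signalling downstream of LIFR, had log2 fold changes of -0.79, 1.15 and 1.79 in the same order of treatments. MAP2K6, the kinase that phosphorylates p38, had -1.61, 0.82 and 1.01. The nearest profiles of GADD45B were all lower under EC359 and higher under vorinostat, as the measure of likeness requires. Across the libraries GADD45A and GADD45B had a Pearson correlation of 0.56 in log2 CPM (n = 8), a description of 8 libraries that fall into 4 treatment groups.

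The other genes that carry the GADD name, DDIT3 (GADD153, encoding CHOP) and PPP1R15A (GADD34), encode unrelated proteins of the integrated stress response. DDIT3 was 24.0 and 25.6 CPM in vehicle, 35.4 and 33.8 CPM in EC359, 35.3 and 36.5 CPM in vorinostat and 167 and 150 CPM in the combination. Its combination libraries lay far above all the others, and there it was higher than in vorinostat by 2.14 on the log2 scale (SE 0.10, adjusted p = 2.1e-06), with an interaction of 1.66 (SE 0.14, adjusted p = 3.1e-04, edgeR). PPP1R15A was 101 and 84.8 CPM in vehicle, 341 and 216 CPM in EC359, 128 and 133 CPM in vorinostat and 416 and 453 CPM in the combination. EC359 raised it with a log2 fold change of 1.58 against vehicle (SE 0.19, adjusted p = 6.7e-04) and of 1.74 on vorinostat (SE 0.19, adjusted p = 3.4e-04, edgeR). The first of these calls was lost without vehicle library 2 (log2 1.46, adjusted p = 0.014) and in the fit to the 4 libraries compared (log2 1.60, adjusted p = 0.017, edgeR). Thus 1 of these 2 genes was called higher under EC359, 0 under vorinostat and 2 in the combination against vehicle. The shares of all genes called higher were 1.94%, 16.8% and 19.5% in that order.

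Of 13 proteins that bind GADD45 proteins, all of whose genes were tested, 2 were called higher and 4 lower in the combination against vehicle, with a median log2 fold change of -0.26 beside 0.07 for all genes. Under EC359 the counts were 1 higher and 0 lower (median 0.01, all genes -0.02), and under vorinostat 2 higher and 0 lower (median -0.24, all genes 0.03). The shares of all genes called were 19.5% higher and 15.3% lower in the combination, 1.94% and 1.72% under EC359, and 16.8% and 13.3% under vorinostat. CDKN1A, which encodes p21, was at 7.13 and 7.43 CPM in vehicle, 40.4 and 46.6 CPM in EC359, 288 and 291 CPM in vorinostat and 459 and 480 CPM in the combination. Unlike GADD45A and GADD45B, it had an interaction below 0, at -1.88 (SE 0.14, adjusted p = 1.8e-04, edgeR). ING1, a chromatin protein that recruits GADD45A, rose in the combination with a log2 fold change of 1.80 (SE 0.13, adjusted p = 2.7e-06, edgeR). The genes of the kinase that GADD45 proteins restrain at mitotic entry fell there, CCNB1 by 1.96 (adjusted p = 5.5e-06) and CDK1 by 1.06 (adjusted p = 6.8e-05, edgeR), though CDK1 reached only -0.99 without combination library 2. AURKA, a mitotic kinase, fell by 1.75 (adjusted p = 2.8e-07), and GADD45GIP1, a mitochondrial ribosome protein, by 1.11 (adjusted p = 9.9e-05, edgeR). These 4 genes were also lower under vorinostat alone at an adjusted p under 0.01 (edgeR), under the fold for a call. Their log2 fold changes there were -0.95 for CCNB1, -0.66 for CDK1, -0.77 for AURKA and -0.97 for GADD45GIP1.

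The remaining 7 binding partners were not called in the combination. The kinase gene MAP3K4 had a log2 fold change of -0.06 (SE 0.15), MAPK14, the gene of p38 alpha, 0.09 (SE 0.16), and PCNA -0.26 (SE 0.13). ERCC5, a nuclease of excision repair, had 0.11 (SE 0.27). The demethylation glycosylase TDG had -0.74 (adjusted p = 5.9e-04), MAP2K7 -0.62 (adjusted p = 6.7e-04) and TAF12, a general transcription factor subunit, 0.76 (adjusted p = 7.9e-04, edgeR), all under the fold threshold.

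The stress kinase cascade below the GADD45 proteins was tested in 14 genes. Of these, 1 was called higher and 1 lower under EC359 (median log2 fold change 0.09), 1 higher and 2 lower under vorinostat (median 0.10), and 2 higher and 2 lower in the combination (median 0.16). The medians of all genes were -0.02, 0.03 and 0.07 in that order. Over all genes 1.94% were called higher and 1.72% lower under EC359, 16.8% and 13.3% under vorinostat, and 19.5% and 15.3% in the combination. The share of the cascade called was near or under that of all genes under vorinostat and in the combination. Under EC359 it was above that of all genes, with only 1 gene in each direction. MAP3K5, which encodes the stress kinase ASK1, was at 9.02 and 9.11 CPM in vehicle, 19.5 and 26.8 CPM in EC359, 7.61 and 8.55 CPM in vorinostat and 20.6 and 15.5 CPM in the combination. EC359 raised it in both backgrounds, by 1.35 against vehicle (adjusted p = 0.0020) and by 1.16 on vorinostat (adjusted p = 0.0035, edgeR). The first call was lost without either vehicle library and in the fit to the 4 libraries compared, and the second without either vorinostat or either combination library. MAP2K6, named above for its likeness to GADD45B, was at 9.11 and 8.97 CPM in vehicle, 2.85 and 3.09 CPM in EC359, 15.7 and 16.2 CPM in vorinostat and 18.9 and 17.4 CPM in the combination. Its interaction was 1.79 (SE 0.21, adjusted p = 0.0016, edgeR), and this call was lost in the 6 fits that left out a vehicle, vorinostat or combination library. Its log2 fold change of 1.01 in the combination lay at the threshold for a call and under it, at 0.90 to 1.00, in 11 of 15 alternatives.

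Of 13 genes for passage from G2 to M, none was called under EC359 (median -0.27, all genes -0.02). Under EC359 1.94% of all genes were called higher and 1.72% lower, shares at which 13 genes may well hold no call. Vorinostat lowered 4 of them (median -0.89, all genes 0.03) and the combination 6 (median -0.97, all genes 0.07), and neither called any higher. Over all genes, 16.8% were called higher and 13.3% lower under vorinostat, and 19.5% and 15.3% in the combination. Only PLK1 was called lower in both. The others called under vorinostat were less reduced in the combination and lost their call there. Their log2 fold changes were -1.62 and -0.78 for CDC25A, -1.15 and -0.79 for CHEK1, and -1.43 and -0.91 for WEE1, vorinostat first. CCNB2, a B-type cyclin, was at 96.8 and 97.9 CPM in vehicle, 62.9 and 70.8 CPM in EC359, 52.4 and 52.4 CPM in vorinostat and 25.5 and 22.1 CPM in the combination. It and CCNB1 were the 2 genes of the list called lower in the combination than in vorinostat, by -1.14 (adjusted p = 1.6e-04) and -1.01 (adjusted p = 0.0019, edgeR). Of all genes, 0.876% were called lower in that comparison. The call for CCNB1 was lost without either vorinostat library and without combination library 2. AURKA had an interaction below 0, at -0.75 (adjusted p = 0.0059, edgeR), which was lost in the 6 fits that left out a vehicle, vorinostat or combination library and with a replicate block.

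Of 27 genes known to regulate GADD45 genes, 25 were tested. The counts were 2 higher and 0 lower under EC359 (median 0.03), 5 higher and 6 lower under vorinostat (median 0.02), and 10 higher and 4 lower in the combination (median 0.47 beside 0.07 for all genes). Of all genes, 1.94% were called higher and 1.72% lower under EC359, 16.8% and 13.3% under vorinostat, and 19.5% and 15.3% in the combination. When EC359 was added to vorinostat, 5 were called higher and 0 lower (median 0.39, all genes -0.01), namely ATF3, EGR1, JUN, KLF6 and MYC. In that comparison 3.37% of all genes were called higher and 0.876% lower. ATF3, a stress-induced transcription factor, was at 15.2 and 16.3 CPM in vehicle, 34.1 and 38.9 CPM in EC359, 77.6 and 75.7 CPM in vorinostat and 284 and 242 CPM in the combination. EGR1, an immediate early factor, was at 42.1 and 32.9 CPM in vehicle, 22.8 and 16.1 CPM in EC359, 74.1 and 80.7 CPM in vorinostat and 298 and 356 CPM in the combination. Like GADD45B, EGR1 was lowest in EC359 alone and highest in the combination, with an interaction of 3.02 (SE 0.25, adjusted p = 3.1e-04, edgeR). Its fall under EC359, -0.94 on the log2 scale (SE 0.18, adjusted p = 0.0087, edgeR), was under the fold for a call. KLF6 had an interaction of 0.87 (adjusted p = 0.0056, edgeR), which was lost in the same 6 fits as that of AURKA and with a replicate block.

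**Figure D4:**
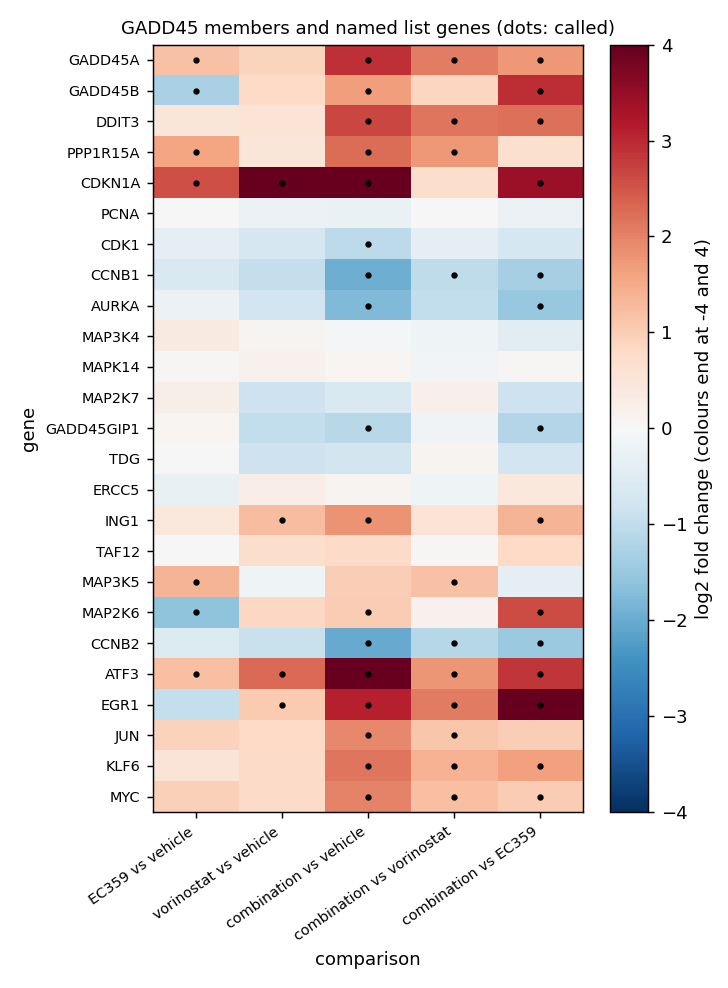
Log2 fold changes (color, with the scale beside it ending at -4 and 4) in 5 comparisons (columns) for the members and for named genes of the lists (rows), where dots mark calls. Against vehicle, GADD45B, MAP2K6 and EGR1 were below 0 with EC359 and above 0 with vorinostat and with both drugs.

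GADD45A and other members have been linked to active DNA demethylation through TET and TDG. Of 12 genes of demethylation, base excision and DNA methylation, 0 were called in either direction under EC359 (median -0.07, all genes -0.02). Under EC359 1.94% of all genes were called higher and 1.72% lower, shares at which 12 genes may well hold no call. Vorinostat raised 1, DNMT3B, and lowered 4, DNMT1, DNMT3A, TET2 and UNG (median -0.90), and the combination raised 0 and lowered 4, DNMT3A, TET1, TET2 and UNG (median -0.82). Beside these stand 16.8% of all genes called higher and 13.3% lower under vorinostat (median 0.03), and 19.5% and 15.3% in the combination (median 0.07). No gene of the list was called when EC359 was added to vorinostat (median -0.10, all genes -0.01). In that comparison 3.37% of all genes were called higher and 0.876% lower, so the absence of calls in 12 genes says little.

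The nearest gene on each side of a member, among the listed symbols that matched GENCODE, is given for context. Genes outside that set may lie closer. GNG12, 13140 bp from GADD45A, had a log2 fold change of -1.76 in the combination against vehicle (adjusted p = 3.6e-07, edgeR), and SERBP1, 254785 bp away on the other side, one of -0.18 (adjusted p = 0.065, edgeR). GNG7, 32959 bp from GADD45B, was at 5.43 and 5.42 CPM in vehicle, 1.77 and 3.04 CPM in EC359, 77.7 and 76.0 CPM in vorinostat and 47.3 and 52.9 CPM in the combination. Like GADD45B it was lowest in EC359, but it was highest in vorinostat alone. LMNB2, 19162 bp from GADD45B on the other side, had a log2 fold change of -0.89 in the combination against vehicle, under the fold for a call. SEMA4D, 106881 bp from GADD45G, rose from 0.76 and 0.56 CPM in vehicle to 5.40 and 5.23 CPM in vorinostat and 12.6 and 11.4 CPM in the combination, while GADD45G had 0 reads in the same libraries. On the other side of GADD45G the nearest gene of that set was MIR4290, a microRNA gene 564252 bp away. It had 0 reads and was not tested, and nothing about the region is read from it.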

How the data were processed

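RNA-seq of BT-549 cells was analysed in 8 libraries, 2 for each of 4 groups assigned by the treatment labels. The deposited values are raw read counts per gene symbol. Per the labels and the paper's methods, the authors sequenced 50 bp single-end reads from a TruSeq library, aligned them to hg19 with TopHat2 2.0.8b and counted them on RefSeq genes with HTSeq, and they tested differences with DESeq. Whether counting used strand is not given in the sources used here. HTSeq's summary lines were left out, and reads on no gene made up 11.0% to 14.2% of a library's counts.

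Of 23228 genes, 13694 passed filterByExpr of edgeR 4.0.16 in R 4.3.3 and were TMM-scaled and fitted with 1 mean per group over all 8 libraries. This fit takes the spread of a gene as equal in all groups, although the EC359 libraries differed from each other the most. Comparisons used edgeR's quasi-likelihood test, and p-values were adjusted by Benjamini-Hochberg across the 13694 genes. Calls required an adjusted p below 0.01 together with a log2 fold change beyond 1 in either direction, or for interactions only the former. SEs were obtained from the log2 fold change and its F statistic. Ratios of paralogs used log2 of CPM plus 0.5 and exact permutation within the other drug's status. Alternatives were DESeq2 1.42.0, RLE scaling, total counts, no filter, the replicate number as a block, fits to the 4 libraries compared, and each library left out. The procedure was tested on simulated data in which a gene had the same spread in every group. It recovered 95.5% of EC359 changes and 78.5% of interactions simulated at a log2 size of 1.5. Spread that differs between groups was not simulated. GADD45 lists were drawn from general knowledge, and the members and lists were chosen with earlier results of these data known. Named genes are the members, list genes called in the combination against vorinostat or in the interaction, binding partners, and the 5 nearest profiles per member. DNA methylation genes, chromosomal neighbours, PLK1, CDC25A, CHEK1 and WEE1 were named after their values were seen. Some genes within the counts of the lists and nearest profiles are not reported here by name. Positions are from GENCODE on GRCh37, where 18908 of 23228 symbols matched (81.4%), and promoter windows from RefSeq on GRCh38.p14. Figures were drawn with matplotlib 3.10.9.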

Additional observations from a re-analysis of the deposited data

Results flagged for a closer look

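The effect of EC359 differed with and without vorinostat in both expressed members and in 6 genes of the lists, by the interaction test of edgeR with Benjamini-Hochberg adjustment over all genes. On the log2 scale the effect on vorinostat minus the effect on vehicle was 2.16 for GADD45B and 0.87 for GADD45A. It was 3.02 for EGR1, 1.79 for MAP2K6, 1.66 for DDIT3 and 0.87 for KLF6, all above 0, and -1.88 for CDKN1A and -0.75 for AURKA, both below 0. EC359 lowered GADD45B and MAP2K6 against vehicle, with log2 fold changes of -1.29 and -1.61, while the same addition to vorinostat gave 0.87 and 0.19. CDKN1A was raised by 2.58 against vehicle, and the difference on vorinostat was 0.70. In GADD45A, MAP2K6, KLF6 and AURKA the interaction was lost in the fits that left out a vehicle, vorinostat or combination library.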

How the results depend on the processing

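Values of GADD45A and GADD45B were recomputed under 15 alternatives for the comparisons of groups and 14 for the interaction. Of 208 such values for 14 results, 199 kept their direction and their call by adjusted p and fold together, 9 lost a call and 0 changed direction. By the adjusted p alone more crossed 0.01: GADD45B in the combination against vorinostat went from 0.0010 to as high as 0.025, and GADD45A in vorinostat against EC359 from 0.019 to as low as 0.0021 without EC359 library 2, both under the fold for a call (edgeR). The lost calls were the EC359 effect on GADD45B in the fit to 4 libraries (-1.27, adjusted p = 0.015, edgeR) and the interaction of GADD45A with RLE scaling (0.82, adjusted p = 0.010), with the replicate block (0.87, adjusted p = 0.016) and in 6 of 8 fits that left out a library, in which it ranged from 0.78 to 0.92 over all 8. The cause was not tested. With a library left out, the lone sample of its group was assumed to vary like the other groups. Of 999 values for other named genes, 938 were unchanged in call and direction, 49 lost a call, 10 gained one and 2 reversed. The reversals were uncalled values in the combination against vehicle without combination library 1. Without 1 library these ranged from -0.0853 to 0.152 for MAPK14 and from -0.148 to 0.243 for ERCC5.

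Same-numbered libraries were correlated in their deviations from group means at 0.173 for vehicle with EC359, 0.0837 for vehicle with vorinostat, -0.0102 for EC359 with vorinostat, -0.0761 for vehicle with the combination, -0.131 for EC359 with the combination and -0.102 for vorinostat with the combination, so the numbers were not taken as pairs. With the replicate block GADD45B kept its interaction (2.17) and the count of interactions went from 222 above and 66 below 0 to 151 and 38. A crossed replicate block, chosen after seeing the data, gave 348 and 129. The block changed no other call of the members.

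Counts over all genes moved more than the members. EC359 against vehicle called 266 higher and 236 lower, 146 and 87 in the fit to 4 libraries, and 168 to 413 and 130 to 511 without 1 library. The combination against vorinostat called 462 and 120, 380 and 182 with total counts, 181 lower with no filter, and 225 to 537 and 60 to 193 without 1 library. Interactions were 446 and 267 with DESeq2, 149 below 0 with no filter, and 45 to 892 and 11 to 639 without 1 library, the highest counts each time without an EC359 library. The ratio of GADD45A to GADD45B shifted by 1.68 to 1.91 for EC359 and by -0.66 to -0.43 for vorinostat without 1 library. Depth limits GADD45G, whose 0 reads allow up to 0.154 CPM, and 2 libraries per group limit every test.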
